A study of Mus musculus with 15 samples.

Results

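Transforming growth factor beta (TGF-beta) genes were followed in mouse spleen after radiation injury, through the 8 panel genes chosen by symbol that encode its ligands (Tgfb1, Tgfb2 and Tgfb3), its receptors (Tgfbr1 and Tgfbr2), its signal transducer Smad3 and the matrix products Tgfbi and Fn1. They are 8 of the 561 genes of the nCounter Mouse Immunology Panel, an assay that captures each mRNA with a pair of probes and counts its barcode without amplification. Spleens of female C57BL/6J mice aged 6 to 8 weeks gave 15 samples in 5 groups of 3. Sham mice were handled alongside the injured mice as uninjured controls, WBIR mice were exposed to whole-body ionising radiation at 9 Gy, and RCI (radiation combined injury) mice had a full-thickness burn of 20% of the body surface before the same dose. The WBIR+MSC-EVs and RCI+MSC-EVs mice had the same injuries and were given extracellular vesicles from C57BL/6J bone marrow mesenchymal stem cells (MSC-EVs) by vein at 72 hours, and their spleens were taken 48 hours later. Untreated mice received saline, and a vehicle of PBS is named in the labels for RCI alone. RCI mice also had morphine and fluid for the burn, so the burn and its care cannot be told apart. All 15 samples were spleen cell suspensions after lysis of red cells, so matrix-bound cells may be under-represented. Whether the 3 replicates of a group were 3 mice was not settled by the labels, and p-values measure the spread between these samples, which may be technical.

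TGF-beta ligands are secreted in a latent form and are freed by integrins and proteases. Active ligand binds TGFBR2, which recruits and phosphorylates TGFBR1, and that kinase in turn phosphorylates SMAD2 and SMAD3, which enter the nucleus with SMAD4. In lymphoid tissue the pathway restrains T cell activation and supports regulatory T cells, and in macrophages and stromal cells it drives matrix genes such as Fn1, which encodes fibronectin, and Tgfbi, which encodes a TGF-beta-induced adhesion protein.

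RefSeq (GRCm38.p6) gave the 250 bases before an annotated start for 6 of the 8 genes, with none for Tgfb3 and Fn1. The 4 windows printed here, 5′ to 3′ on the gene's strand, are those of Tgfb1 and Tgfb2 and of the receptor pair, whose counts diverged. Counts of Tgfb2 were near the floor of the assay, so how it differed from Tgfb1 was not established. A link of these sequences to the counts was not tested. Capitals mark matches to CAGACA, an element that SMAD3 binds, and to TATAAA, the TATA box, searched on both strands.
Tgfb1, chr7:25686752-25687001, plus strand: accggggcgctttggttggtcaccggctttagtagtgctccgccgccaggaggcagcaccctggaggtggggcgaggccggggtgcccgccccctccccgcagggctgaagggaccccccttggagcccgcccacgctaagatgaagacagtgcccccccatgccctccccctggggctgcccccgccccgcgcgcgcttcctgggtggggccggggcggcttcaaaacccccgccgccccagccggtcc
Tgfb2, chr1:186705990-186706239, minus strand: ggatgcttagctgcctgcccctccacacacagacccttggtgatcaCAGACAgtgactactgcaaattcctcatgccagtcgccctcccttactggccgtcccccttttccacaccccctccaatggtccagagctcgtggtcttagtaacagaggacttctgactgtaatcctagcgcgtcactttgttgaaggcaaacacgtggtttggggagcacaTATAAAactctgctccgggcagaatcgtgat
Tgfbr1, chr4:47352972-47353221, plus strand: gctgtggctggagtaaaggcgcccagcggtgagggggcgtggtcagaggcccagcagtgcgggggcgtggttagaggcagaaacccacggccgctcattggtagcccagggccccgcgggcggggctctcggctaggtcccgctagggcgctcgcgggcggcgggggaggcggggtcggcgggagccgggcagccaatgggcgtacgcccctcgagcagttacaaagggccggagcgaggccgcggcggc
Tgfbr2, chr9:116175364-116175613, minus strand: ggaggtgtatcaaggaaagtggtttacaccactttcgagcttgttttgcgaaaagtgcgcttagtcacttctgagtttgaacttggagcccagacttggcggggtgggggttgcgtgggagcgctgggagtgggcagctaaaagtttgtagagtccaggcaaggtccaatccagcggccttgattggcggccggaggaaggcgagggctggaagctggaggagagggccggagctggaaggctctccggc
The GC content was 75.2% before Tgfb1 and 53.6% before Tgfb2, and 74.8% before Tgfbr1 and 58.4% before Tgfbr2, beside a median of 52.4% over all 32851 windows. Tgfb2 held CAGACA from base 204 and TATAAA from base 31 before its start, whereas the windows of Tgfb1, Tgfbr1 and Tgfbr2 printed above held neither. A further Tgfbr1 start, whose window is chr4:47385966-47386215, held CAGACA from base 203. Over all windows, 17.1% held CAGACA and 12.4% held TATAAA. The AP-1 element TGAGTCA, in 4.46% of windows, and the cyclic AMP response element TGACGTCA, in 1.55%, were in no window of the 6 genes. These matches describe letters in a window and no binding was measured.

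Counts were put on a common scale through the 14 reference genes of the panel (the scaled count). Genes whose raw count averaged 20 or more entered edgeR's quasi-likelihood fit over all 15 samples. A gene was called at a Benjamini-Hochberg adjusted p under 0.05, and log2 fold changes (log2FC) are given with their standard error (SE). Of the 8 genes, 6 were tested; Tgfb2 (mean 7.4 raw counts) and Tgfb3 (mean 13) were not. Total counts ranged from 90127 in WBIR+MSC-EVs replicate 1 to 598872. The samples carried broad changes in the marker genes of cell types. The summed scaled count of 7 B cell genes was 17152 to 18450 in Sham and 425 to 1224 in the irradiated samples, and that of 9 T cell genes was 9726 to 21396 against 2350 to 5085. The sum of 8 macrophage and monocyte genes was 2185 to 3213 in Sham and 11416 to 40450 after irradiation, and that of 3 platelet genes was 419 to 1372 against 1802 to 5481. The sum of 7 stromal and endothelial genes was 2618 to 3296 in Sham and 3202 to 7718 after irradiation, and that of 6 neutrophil genes was 7845 to 44392 against 1452 to 10085. Single genes did not all move with their sum. Mean Vcam1 was 1107 scaled counts in Sham and 3199 to 4220 in the irradiated groups, whereas mean Pecam1 was 1733 and 1113 to 1621. Of the 6 stromal and endothelial genes tested, 2 to 4 were called higher against Sham and 0 lower. Of the 8 macrophage and monocyte genes, 6 or 7 were called higher and 0 lower. Itgam was uncalled in each comparison, at a log2FC of -0.50 to 1.19. None of the 8415 values was 0. In these bulk samples fewer cells of a type and less RNA per cell cannot be told apart, and the part of these shifts in the results below was not tested. RCI replicate 3 stood apart, with 30247 scaled counts of the scavenger receptor gene Marco where the other RCI samples had 3501 and 5125, and with 439 of the adhesion molecule gene Vcam1 where they had 4581 and 4576.

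**Figure D1:**
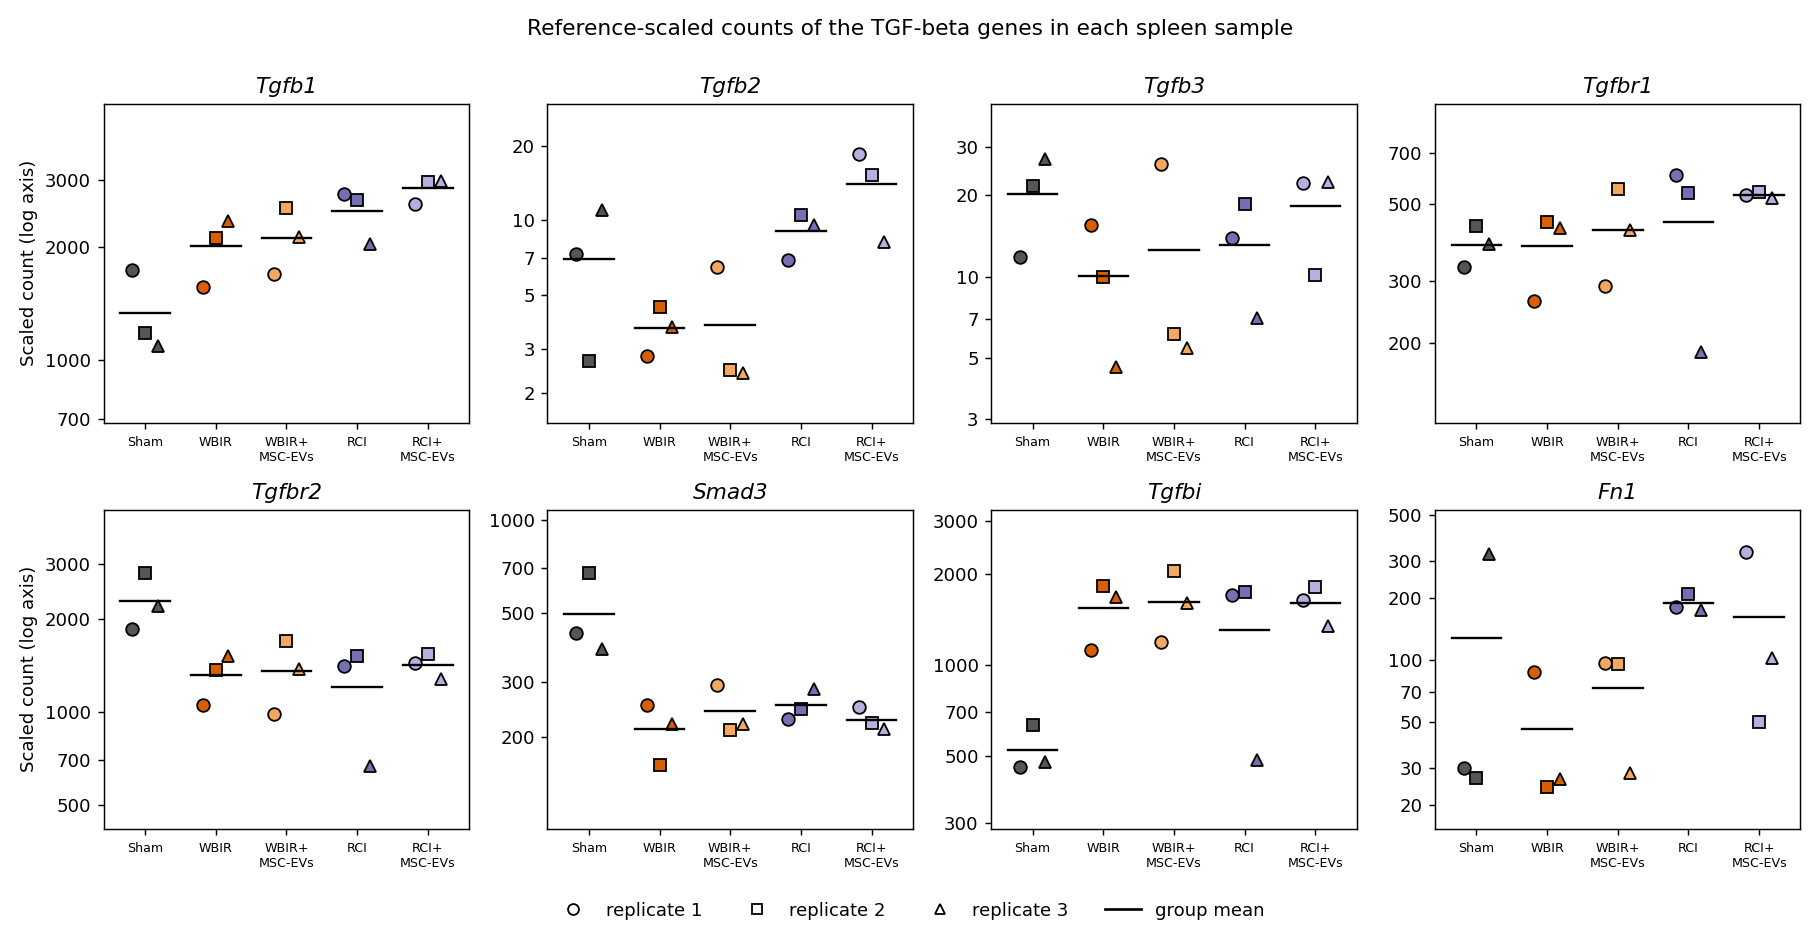
Scaled counts (log axis) of the 8 TGF-beta genes in each of the 15 samples, with replicates as circles, squares and triangles and the group mean as a line. Every irradiated sample lies under every Sham sample for Tgfbr2 and Smad3, and RCI replicate 3 lies with Sham for Tgfbi.

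Against Sham, the ligand gene Tgfb1 and the matrix gene Tgfbi were higher after injury, while the receptor gene Tgfbr2 and the transducer gene Smad3 were lower. The Tgfbr1 receptor gene and Fn1 were not called in any of the 4 comparisons. In WBIR, 3 of the 6 tested genes were called, 1 higher and 2 lower, where 68.5% of the 426 genes tested were called, 21.6% higher and 46.9% lower. In WBIR+MSC-EVs, 4 were called, 2 in each direction, where 67.8% of all genes were called, 22.8% higher and 45.1% lower. In RCI, 4 were called, 2 in each direction, where 69.5% of all genes were called, 26.5% higher and 43.0% lower. In RCI+MSC-EVs, 3 were called, 2 higher and 1 lower, where 65.3% of all genes were called, 23.9% higher and 41.3% lower. These members' shares of called genes were near or under the background. The values of the injured and Sham samples did not overlap for 3, 3, 3 and 5 of the 6 genes in these comparisons, against 71.1%, 69.0%, 64.6% and 70.4% of all genes. These 4 comparisons share the same 3 Sham samples.

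Tgfb1, the ligand that lymphoid and myeloid cells mainly make, had 1735, 1181 and 1093 scaled counts in Sham. It had 1560, 2115 and 2338 in WBIR, 1691, 2529 and 2123 in WBIR+MSC-EVs, 2764, 2658 and 2035 in RCI, and 2600, 2966 and 2988 in RCI+MSC-EVs. All 6 RCI and RCI+MSC-EVs samples were above every Sham sample, while replicate 1 of WBIR and of WBIR+MSC-EVs fell under the highest Sham sample. The group means were 1336 ± 348 (SD, n = 3) in Sham, 2005 ± 401 in WBIR, 2114 ± 419 in WBIR+MSC-EVs, 2486 ± 394 for RCI and 2851 ± 218 for RCI+MSC-EVs. By edgeR, Tgfb1 rose in WBIR+MSC-EVs (log2FC 0.66 ± 0.25, adjusted p = 0.0306), RCI (0.89 ± 0.25, adjusted p = 0.00564) and RCI+MSC-EVs (1.09 ± 0.25, adjusted p = 0.00163), the last a 2.13-fold difference. In WBIR its log2FC was 0.58 ± 0.25 with an edgeR adjusted p of 0.0516. That value was called under each of the 4 other scalings, at 0.67 to 1.17, and without any of 4 single samples (Sham replicate 1, WBIR replicate 1, WBIR+MSC-EVs replicate 1 or RCI replicate 3), at 0.58 to 0.82. In WBIR+MSC-EVs the call was lost without any of 4 single samples, Sham replicate 2 or 3 or WBIR+MSC-EVs replicate 2 or 3, at log2FC values from 0.51 to 0.66.

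The other ligand genes were near the floor of the assay. Raw counts of Tgfb2 ran from 1 to 20 over the 15 samples and those of Tgfb3 from 5 to 32, where Tgfb1 had 439 to 4101, although counts of different probes are not strictly comparable between genes. Tgfb2 had 8, 1 and 13 raw counts in Sham, 2, 4 and 4 in WBIR, 2, 4 and 4 in WBIR+MSC-EVs, 7, 8 and 15 in RCI, and 20, 12 and 7 in RCI+MSC-EVs. On the scaled count, the 6 burned samples (6.90 to 18.5) lay above the 6 samples with irradiation alone (2.42 to 6.46), and Sham (2.69 to 11.0) overlapped both. Of the 121 genes under the count minimum, 4 (3.31%) were without overlap between these sets of 6, all 4 of them higher in the burned samples, namely Tgfb2, Ccrl1, Il10 and Il5. Without the filter on low counts, which brings 547 genes into the fit, edgeR gave Tgfb2 a log2FC of 1.73 ± 0.36 for RCI against WBIR averaged over MSC-EV treatment (adjusted p = 0.0225). The same 121 genes had a median log2FC of 0.56 in that comparison, and 5 of them were called, namely Tgfb2, Ccl7, Ccrl1, Il10 and Il5. Without the filter Tgfb2 was also lower in WBIR+MSC-EVs than in Sham (log2FC -1.36 ± 0.54, edgeR adjusted p = 0.0435). Without the negative control probes, not used here, signal was not separated from background at these counts. Tgfb3 had 20.1 ± 7.68 scaled counts in Sham and means of 10.1 to 18.2 in the injured groups, and without the filter its edgeR adjusted p was at least 0.176 in each comparison with Sham.

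The receptor genes diverged. Tgfbr2, which encodes the ligand-binding receptor, had 1855, 2820 and 2197 scaled counts in Sham. It had 1054, 1366 and 1517 in WBIR, 986, 1696 and 1377 in WBIR+MSC-EVs, 1413, 1519 and 669 in RCI, and 1439, 1545 and 1278 in RCI+MSC-EVs. All 12 irradiated samples were under the lowest Sham sample. By edgeR, Tgfbr2 fell in WBIR (log2FC -0.80 ± 0.31, adjusted p = 0.0311), WBIR+MSC-EVs (-0.76 ± 0.31, adjusted p = 0.0409) and RCI (-0.93 ± 0.31, adjusted p = 0.0143), and in RCI+MSC-EVs its log2FC was -0.69 ± 0.31 with an adjusted p of 0.0606. These values lay 0.06, 0.14, 0.40 and 0.24 under the median gene, which was -0.74, -0.61, -0.53 and -0.45 in the same order. With TMM scaling, which moves the median gene up by 0.71, 0.56, 0.54 and 0.37, the log2FC of Tgfbr2 was -0.15, -0.20, -0.49 and -0.34 and was not called in any of the 4. Over the 27 alternatives its adjusted p against Sham ran from 0.00362 to 0.654 in WBIR, 0.0102 to 0.548 in WBIR+MSC-EVs, 0.00536 to 0.101 for RCI, and 0.00977 to 0.219 for RCI+MSC-EVs. The call in WBIR was lost without Sham replicate 2 or WBIR replicate 1 or 2 (log2FC -0.83 to -0.63), and that in RCI without Sham replicate 2 (-0.76). That in WBIR+MSC-EVs was lost without any of 8 samples, namely Sham replicate 2 or 3, WBIR replicate 2, WBIR+MSC-EVs replicate 1 or 3, or any RCI+MSC-EVs sample (-0.79 to -0.58). In RCI+MSC-EVs it was called without Sham replicate 1 or RCI replicate 3 (-0.82 to -0.69).

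Tgfbr1, the kinase that TGFBR2 recruits, had 329, 433 and 384 scaled counts in Sham. It had 263, 444 and 427 in WBIR, 291, 550 and 420 in WBIR+MSC-EVs, 604, 536 and 189 in RCI, and 531, 540 and 518 in RCI+MSC-EVs. The 3 RCI+MSC-EVs samples were above every Sham sample, and the RCI samples spread from the lowest value of the series to the highest. By edgeR the log2FC against Sham was -0.01 ± 0.36 in WBIR, 0.15 ± 0.36 in WBIR+MSC-EVs, 0.21 ± 0.36 for RCI and 0.47 ± 0.36 for RCI+MSC-EVs, with adjusted p of 0.977, 0.735, 0.602 and 0.255. TMM scaling gave 0.80 and a call in RCI+MSC-EVs (adjusted p = 0.0372, range over the alternatives 0.0372 to 0.454). Without RCI replicate 3 and WBIR+MSC-EVs replicate 1, the log2FC in RCI was 0.58 (adjusted p = 0.0434, range over the alternatives 0.0434 to 0.998).

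The ratio of 2 genes within a sample does not depend on the scaling. The log2 ratio of raw Tgfbr1 to Tgfbr2 counts was -2.70 to -2.49 in the 3 Sham samples and -2.0 to -1.23 in the 12 irradiated samples, so the groups did not overlap. The means differed by 0.96, a 1.94-fold shift toward Tgfbr1. In the edgeR fits against Sham, Tgfbr1 lay 0.73 to 0.92 above the median gene and Tgfbr2 0.06 to 0.40 under it. How many other pairs of genes separated in this way was not counted. Of single genes, 64.6% to 71.1% did not overlap with Sham in each comparison. By group, the ratio was -2.57 ± 0.11 (SD, n = 3) in Sham, -1.82 ± 0.19 in WBIR, -1.70 ± 0.07 in WBIR+MSC-EVs, -1.52 ± 0.30 for RCI and -1.42 ± 0.11 for RCI+MSC-EVs. RCI replicate 3, whose counts of both receptors were low, had a ratio of -1.83. The 5 other ratios examined overlapped between Sham and the irradiated samples. They included Tgfbi over Tgfb1, at -1.92 to -0.90 in Sham and -2.07 to -0.21 in the irradiated samples, and Smad3 over Tgfbr2, at -2.51 to -2.07 and -3.07 to -1.23. These ratios are descriptions and were not tested.

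**Figure D2:**
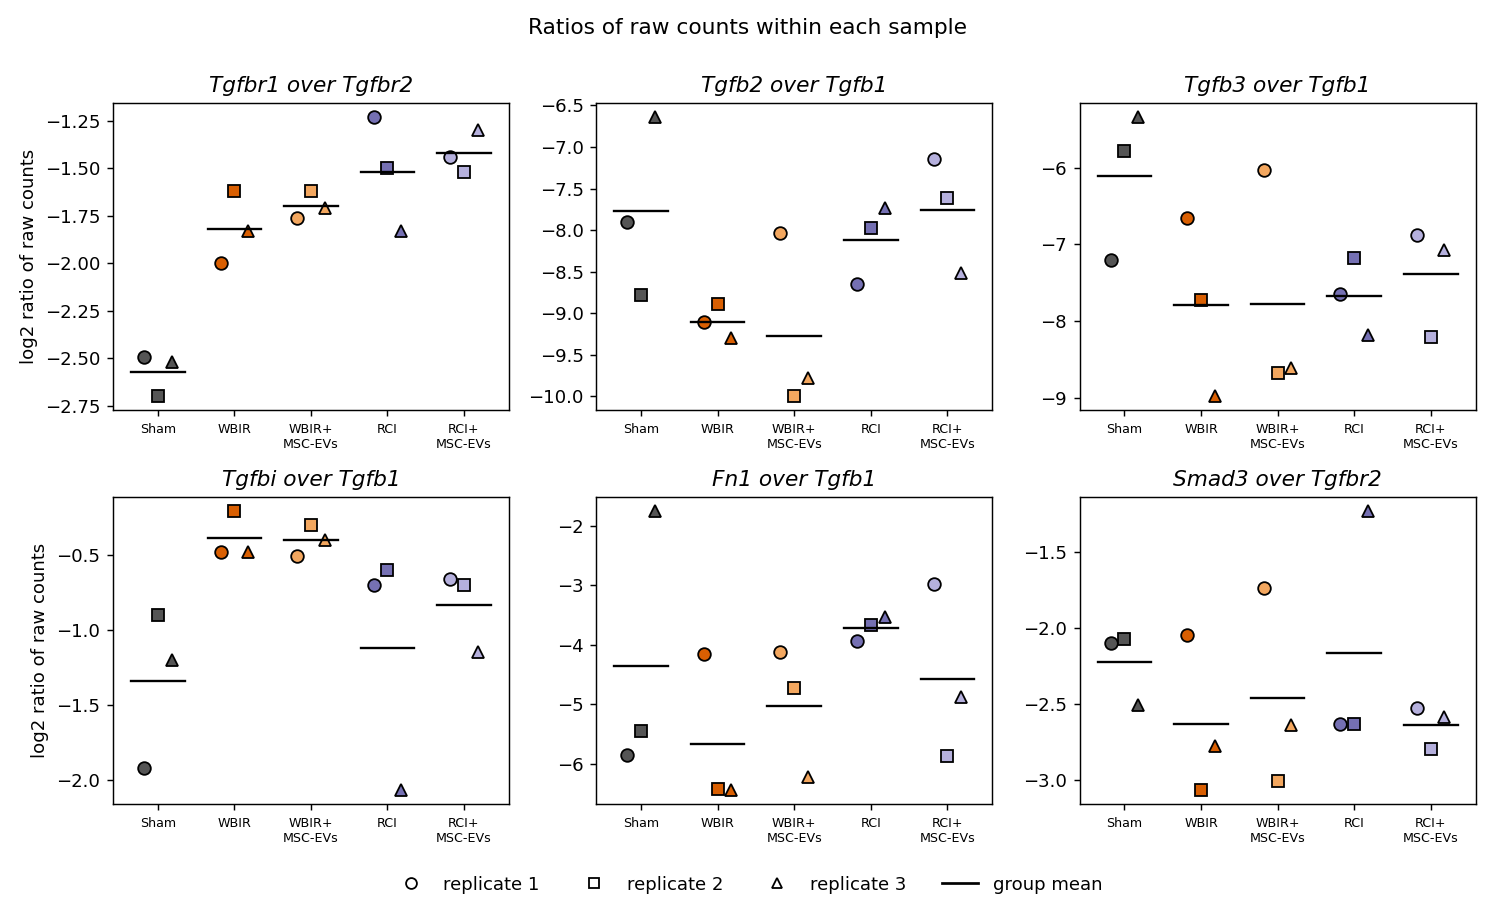
Log2 ratios of raw counts within each sample for 6 pairs of genes, by group, with the group mean as a line. For Tgfbr1 over Tgfbr2 the 3 Sham samples lie at or under -2.49 and the 12 irradiated samples at or above -2.0.

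Smad3, which carries the signal from the receptors to the nucleus, had 433, 673 and 385 scaled counts in Sham. It had 254, 162 and 221 in WBIR, 294, 210 and 221 in WBIR+MSC-EVs, 228, 246 and 285 in RCI, and 249, 222 and 212 in RCI+MSC-EVs. All 12 irradiated samples were under the lowest Sham sample, and RCI replicate 3 was not apart from its group. By edgeR, Smad3 fell in WBIR (log2FC -1.22 ± 0.25, adjusted p = 6.4e-04), WBIR+MSC-EVs (-1.04 ± 0.25, adjusted p = 0.00214), RCI (-0.97 ± 0.25, adjusted p = 0.00319) and RCI+MSC-EVs (-1.12 ± 0.25, adjusted p = 0.00130). It lay 0.43 to 0.67 under the median gene in the 4 comparisons. With TMM scaling it fell by 0.55 in WBIR and by 0.75 in RCI+MSC-EVs, and its log2FC of -0.47 in WBIR+MSC-EVs and -0.42 in RCI was not called (adjusted p = 0.0845 and 0.111, ranges over the alternatives 2.1e-04 to 0.0898 and 5.7e-04 to 0.119).

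Tgfbi, the TGF-beta-induced adhesion protein made by macrophages and stromal cells, had the largest differences among the 4 members called. It had 459, 632 and 477 scaled counts in Sham. It had 1122, 1830 and 1679 in WBIR, 1190, 2047 and 1613 in WBIR+MSC-EVs, 1702, 1752 and 485 in RCI, and 1643, 1822 and 1345 in RCI+MSC-EVs. Of the 12 irradiated samples, 11 were above every Sham sample and RCI replicate 3 was within the Sham range. By edgeR, Tgfbi rose 2.96-fold in WBIR (log2FC 1.57 ± 0.40, adjusted p = 0.00296), 3.10-fold in WBIR+MSC-EVs (1.63 ± 0.40, adjusted p = 0.00238), 2.52-fold in RCI (1.33 ± 0.40, adjusted p = 0.00794) and 3.07-fold in RCI+MSC-EVs (1.62 ± 0.40, adjusted p = 0.00260). It was called under each of the other scalings. In the plot of scalings its values ran from 1.12 to 2.23. The 8 macrophage and monocyte genes of the low RCI sample moved in different directions from those of the other RCI samples. Marco, Itgam and Cd14 were above both of them (30247, 963 and 1159 scaled counts), Cd163, Csf1r and Fcgr1 were under both (102, 1763 and 445), and Msr1 and Emr1 lay between (1096 and 4676). The sum of the 8 was above Sham in all 12 irradiated samples. That sample's sum of 40450 was the highest of the series, but Marco alone made up 30247 of it. The stromal and endothelial sum was above Sham in 11 of the 12, with RCI replicate 3 within the Sham range at 3202. Its 7 genes also moved in different directions in that sample. Vcam1 and Pecam1 were under both other RCI samples (439 and 956 scaled counts). Cxcl12, Cxcl13, Ccl19 and Pdgfrb were above both (1145, 424, 141 and 41.6), and Cdh5 lay between (55.7). The part of either sum in the values of Tgfbi was not tested.

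**Figure D3:**
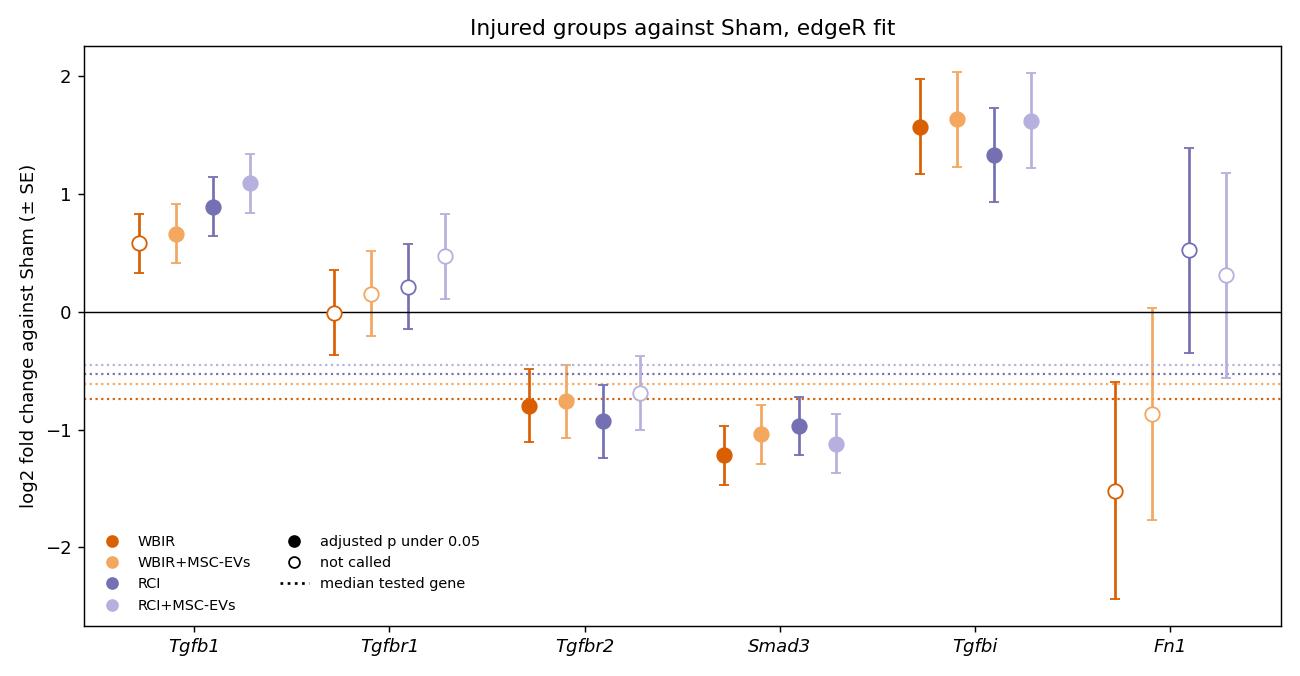
Log2 fold change against Sham (± SE, edgeR, n = 3 per group) of the 6 tested TGF-beta genes in the 4 injured groups. Filled points had an adjusted p under 0.05, open points did not, and dotted lines give the median of the 426 genes tested in each comparison.

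**Figure D4:**
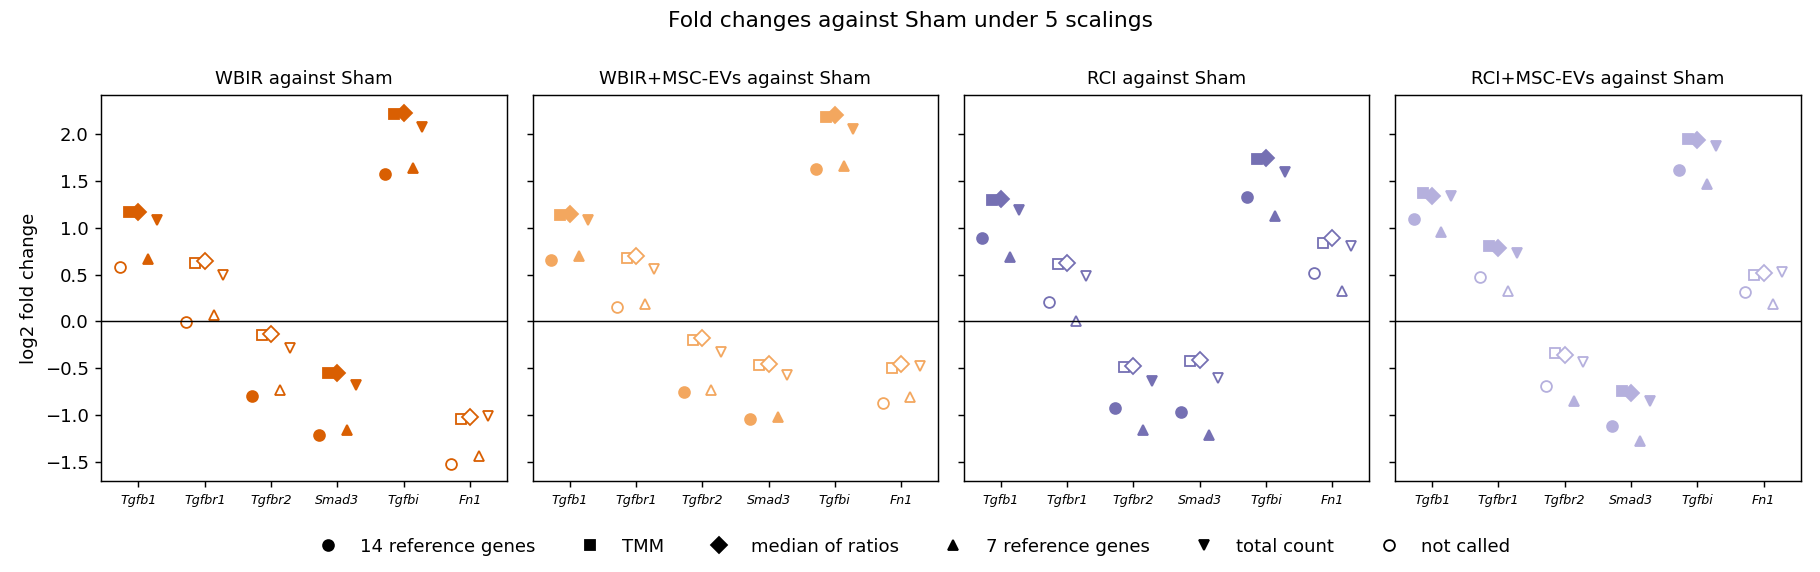
Log2 fold change against Sham under 5 scalings, a panel for each injured group, with open symbols where the gene was not called. Tgfbi was called higher in each panel under each scaling, while Tgfbr2 was not called in any panel under TMM or the median of ratios.

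Fn1, the fibronectin gene, was the least stable of the tested genes. It had 30, 26.9 and 326 scaled counts in Sham, so that replicate 3 alone held most of the Sham signal. It had 87.6, 24.5 and 26.8 in WBIR, 97.0, 95.6 and 28.4 in WBIR+MSC-EVs, 181, 209 and 175 in RCI, and 332, 50.5 and 102 in RCI+MSC-EVs. The RCI samples were close together, and each other group spread at least 3-fold. By edgeR the log2FC against Sham was -1.52 ± 0.92 in WBIR, -0.87 ± 0.90 in WBIR+MSC-EVs, 0.52 ± 0.87 for RCI and 0.31 ± 0.87 for RCI+MSC-EVs, with adjusted p of 0.151, 0.401, 0.597 and 0.767. Without Sham replicate 3, the log2FC was 0.66 and not called in WBIR, 1.32 and not called in WBIR+MSC-EVs, 2.71 and called in RCI (adjusted p = 0.0130) and 2.49 and called in RCI+MSC-EVs (adjusted p = 0.0201). Over the alternatives these adjusted p ran up to 0.963 and 0.926.

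Whether the burn added to irradiation was asked by RCI against WBIR, where none of the 6 genes was called and 0.704% of all genes were. Averaged over MSC-EV treatment, again none of the 6 was called, where 3.05% of all genes were. The largest difference was that of Fn1. All 3 RCI samples were above all 3 WBIR samples, as was so for 27.0% of all genes in one direction or the other, and none of the other 5 genes was without overlap. The edgeR log2FC of Fn1 was 2.04 ± 0.93 (unadjusted p = 0.0444, adjusted p = 0.271), with a 95% interval of 0.06 to 4.03. Averaged over MSC-EV treatment it was 1.61 ± 0.65 (unadjusted p = 0.0259, adjusted p = 0.130), and DESeq2 gave 1.59 with an adjusted p of 0.0447 (range over the alternatives 0.0447 to 0.331). Tgfb1 was next in the averaged comparison at 0.37 ± 0.18 (edgeR adjusted p = 0.200), with a 95% interval of -0.01 to 0.75. The averaged values of Tgfbr1, Smad3, Tgfbr2 and Tgfbi were 0.27, 0.09, -0.03 and -0.12, each with an edgeR adjusted p of at least 0.500, beside a median gene at 0.23.

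Treatment with MSC-EVs left no called difference in these genes. When WBIR+MSC-EVs was set against WBIR, and RCI+MSC-EVs against RCI, 0 of the 6 genes and 0% of all genes were called by edgeR, and at an unadjusted p under 0.05 there were 11 and 14 of the 426 genes, with 0 of the 6 in each. DESeq2 also called 0 genes in each. Treated and untreated samples overlapped for each of the 6 genes, while 8.92% and 10.8% of all genes were without overlap in the 2 comparisons. In WBIR the treated-minus-untreated log2FC was 0.08 ± 0.25 for Tgfb1, 0.16 ± 0.36 for Tgfbr1, 0.05 ± 0.30 for Tgfbr2, 0.18 ± 0.25 for Smad3, 0.07 ± 0.39 for Tgfbi and 0.66 ± 0.93 for Fn1. In RCI it was 0.20 ± 0.25, 0.26 ± 0.36, 0.24 ± 0.30, -0.15 ± 0.25, 0.29 ± 0.39 and -0.21 ± 0.87 in the same order. The 95% intervals still allowed sizeable effects, such as -0.46 to 0.61 for Tgfb1 in WBIR and -0.34 to 0.73 in RCI, or -0.76 to 0.90 and -0.54 to 1.12 for Tgfbi. For Fn1 the interval in WBIR was -1.34 to 2.65. The effect averaged over both injuries ran from 0.01 (Smad3) to 0.22 (Fn1), and the difference of the effect between the injuries from -0.87 ± 1.27 (Fn1) to 0.22 ± 0.55 (Tgfbi). None of the 6 genes and 0% of all genes were called in either, with 14 and 11 genes at an unadjusted p under 0.05. The narrowest spread was that of Tgfbr1 in RCI+MSC-EVs, at 530 ± 11.4 (SD, n = 3) against 443 ± 223 in RCI, a spread that rests on RCI replicate 3.

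A wider list of 54 genes of the pathway had 18 on the panel and 15 tested. Against Sham, 3 were higher and 9 lower in WBIR, 4 and 9 in WBIR+MSC-EVs, 4 and 6 for RCI, and 4 and 5 for RCI+MSC-EVs, beside the shares of all genes given above. TMM scaling gave 5 higher and 6 lower, 5 and 4, 5 and 5, and 5 and 4. Of all 426 genes tested it gave 135 higher and 150 lower, 132 and 147, 151 and 149, and 137 and 149. Among genes that activate the ligand, Itgb1, the integrin beta chain, rose in each injured group (log2FC 0.56, 0.74, 0.88 and 1.07). The call in WBIR was lost without any of 9 samples, namely Sham replicate 1 or 3, WBIR replicate 2 or 3, WBIR+MSC-EVs replicate 3, RCI replicate 2 or any RCI+MSC-EVs sample (0.40 to 0.56). Plau, the urokinase that activates plasmin, rose by 2.73, 2.62, 2.62 and 2.43, from 2.69 to 11.8 scaled counts in Sham to 31.3 to 80.8. Raw Plau counts in Sham were 9, 1 and 14, so Plau passed the count minimum only through irradiated samples. Signal was not separated from background at such counts, so the size of the rise in Plau is uncertain. Its receptor gene Plaur moved the opposite way, with log2FC values of -3.40, -3.26, -2.73 and -2.75 (edgeR adjusted p of at most 2.0e-05). The neutrophil sum overlapped between Sham and the irradiated samples in 1 irradiated sample, WBIR+MSC-EVs replicate 1 at 10085, and was lower in the other 11, and its part in the values of Plaur was not tested.

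Among 7 transducers and inhibitors, 6, 6, 5 and 4 were lower in the 4 comparisons, where 46.9%, 45.1%, 43.0% and 41.3% of all genes were lower. With TMM, median-of-ratios and total-count scaling the counts were 3, 3, 4 and 3, and with the 7 steadiest reference genes 5, 6, 6 and 4. Of all 426 genes tested, 145 to 164 were called lower under the first 3 of these scalings. With the 7 reference genes 188 to 202 were, and in the main fit 176 to 200. Ski, a repressor of SMAD-driven transcription, fell too (-0.90, -0.84, -0.96 and -0.67), but under TMM scaling it was called in RCI alone. Traf6, the ubiquitin ligase of the SMAD-independent branch, fell in each injured group (log2FC -1.36, -1.23, -1.49 and -1.18). Runx3, a T cell and NK cell factor that acts with SMADs, fell the most (-3.16, -3.11, -3.41 and -3.27), and Trp53, which encodes p53, had log2FC values of -1.70 to -1.38 and was called in all 4. Smad5, a transducer of bone morphogenetic proteins, fell in WBIR (-0.87) and WBIR+MSC-EVs (-0.68), and in the RCI groups had values of -0.47 and -0.44 that were not called. TMM scaling left Smad5 uncalled in all 4. Mapk14, the p38 kinase, was higher and called in RCI (0.52) and RCI+MSC-EVs (0.63), and in WBIR it had a log2FC of 0.40 that was not called. The 4 other scalings called it in WBIR too, at up to 1.03, and 3 of them called it in WBIR+MSC-EVs, at up to 0.90, while 7-gene scaling left it uncalled in RCI (0.30). Runx1, a blood cell factor of the same family as Runx3, was lower and called in all but RCI+MSC-EVs (-0.53, -0.70 and -0.48), and TMM scaling left it uncalled throughout. Single samples decided several of these calls. Ski was uncalled in WBIR+MSC-EVs without replicate 2 of that group (-0.71) and in RCI+MSC-EVs without Sham replicate 1 or 2 or its own replicate 1 or 3 (-0.68 to -0.56). Smad5 was uncalled in WBIR+MSC-EVs without Sham replicate 2 or its own replicate 2 or 3 (-0.65 to -0.29), and was called in the RCI groups without Sham replicate 1 (-0.67 and -0.65). Mapk14 was uncalled in RCI without RCI replicate 1 (0.46), and was called in the WBIR groups without Sham replicate 2 or RCI replicate 3 (0.36 to 0.47). Runx1 was uncalled in WBIR without Sham replicate 2 or 3 or WBIR replicate 1 or 2 (-0.54 to -0.44), and in RCI without any 1 sample but Sham replicate 1 or RCI+MSC-EVs replicate 3 (-0.56 to -0.38).

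Of 5 tested genes known to respond to TGF-beta, Pdgfb, a platelet-derived growth factor chain, rose in each injured group (log2FC 2.52, 2.40, 2.93 and 2.71), from 34.6 to 110 scaled counts in Sham to 274 to 511. Under TMM scaling the calls of Pdgfb, Plau, Plaur, Traf6, Runx3 and Trp53 stood in all 4 comparisons. Foxp3, which defines regulatory T cells, was lower and called in WBIR (-1.61 ± 0.38, edgeR adjusted p = 0.00195) and WBIR+MSC-EVs (-1.07 ± 0.38, adjusted p = 0.0223), with values of -0.62 and -0.52 that were not called in RCI and RCI+MSC-EVs. The burn effect on Foxp3, averaged over MSC-EV treatment, was 0.76 ± 0.27 (edgeR adjusted p = 0.0882), so the difference between the injuries was not called, except without Sham replicate 2 (0.77). Ikzf2, which encodes Helios of regulatory T cells, had values of -1.29, -0.79, -0.64 and -0.43, of which those of WBIR and WBIR+MSC-EVs were called. TMM scaling left Foxp3 and Ikzf2 uncalled in WBIR+MSC-EVs. There Foxp3 was also uncalled without Sham replicate 2 or WBIR+MSC-EVs replicate 2 or 3 (-1.02 to -0.69), and Ikzf2 without Sham replicate 2 or any WBIR+MSC-EVs sample (-0.87 to -0.40), while Ikzf2 was called in RCI without Sham replicate 1 (-0.87). Ahr, a ligand-activated transcription factor, was higher and called in WBIR+MSC-EVs (1.14), not without any 1 Sham sample or replicate 1 or 2 of that group (0.84 to 1.23), and it was called in RCI and RCI+MSC-EVs without RCI replicate 3 (1.09 and 0.92). Of 5 scalings, 3 called Ahr in WBIR (0.45 to 1.03 over the 5), 2 in RCI (0.45 to 0.99) and 3 in RCI+MSC-EVs (0.78 to 1.19). Prdm1, which encodes the repressor Blimp-1, had values of -0.14 to 0.09 and was called in no comparison with Sham under the reference gene scaling, but median-of-ratios scaling called it higher in WBIR+MSC-EVs (0.62). None of the 15 was called between RCI and WBIR or for MSC-EVs. The sum of 9 T cell genes fell and that of 3 platelet genes rose in the same samples, and their part in the values of Runx3, Foxp3, Ikzf2 and Pdgfb was not tested.

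The genes whose profile over the 15 samples was most like each of 5 tested genes were found by the root mean square difference of gene-centred log2 scaled counts, against the 425 other genes tested. Tgfbi was closest to Cd82 (0.10, where the median gene was 1.08 away) and then Cmklr1 (0.25). Tgfbr2 was closest to Pml (0.16) and Cd4 (0.25), and Tgfbr1 to Npc1 (0.17) and Il10rb (0.19). Smad3 was closest to Notch1 (0.19) and Ikzf1 (0.21), and Tgfb1 to Ebi3 (0.24) and Ifi35 (0.25). The genes were read in the same samples, which differ in depth and injury, so these distances only describe which profiles were alike.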

How the data were processed

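The members and the gene lists were chosen with earlier results of these data known. RNA was hybridised to the panel and the authors used nSolver 4.0 to normalise and test it. The values the authors deposited are barcode counts before that normalisation, whole numbers whose totals differed 6.64-fold and whose reference gene means differed 5.35-fold. The lowest value was 1 in 13 of 15 samples, which may stand for 0, and background was not subtracted. Cartridge and run date were not used here.

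Scaled counts are raw counts divided by the geometric mean of the 14 reference genes and multiplied by its mean over samples. Of these reference genes, 5 to 7 moved over 2-fold against Sham after scaling. Of 547 endogenous genes, the 426 that averaged 20 or more counts were fitted in edgeR 4.0.16 (R 4.3.3; glmQLFit, robust, glmQLFTest, two-sided), with 1 coefficient per group and all 15 samples. The p-values were Benjamini-Hochberg adjusted within each of 10 comparisons, and the SE is the absolute log2FC over the square root of F. Replicates varied by 33.1% beyond counting error (common dispersion 0.110). The fit was also run on simulated data with a lower dispersion and with reference genes free of noise. That run could not show how shifts of the reference genes affect the calls. Replicate numbers recur in every group. Same-numbered samples deviated together, with a correlation over 0.1 for all 3 pairs, in WBIR with WBIR+MSC-EVs (0.676, 0.388 and 0.241) and in RCI with RCI+MSC-EVs (0.261, 0.33 and 0.521), and in none of the 8 other pairs of groups. The numbers were therefore taken to pair treated with untreated samples of the same injury, from the data and not from the labels, and a fit with that block was added after seeing the data. Samples of different numbers were not compared. The highest correlation joined the irradiated samples with the lowest totals, WBIR replicate 1 (204412) and WBIR+MSC-EVs replicate 1 (90127). The part of depth in these correlations was not tested, so the pairing is an assumption. Alternatives used DESeq2 1.42.0 and limma 3.58.1, other scalings and filters, and samples left out. The text names the 8 members, the 2 tested genes nearest to each tested member (those of Fn1 are not reported here), the listed pathway genes, and genes that describe single samples or the low-count calls, which were chosen after their values were seen. No set test was run.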

Additional observations from a re-analysis of the deposited data

How the results depend on the processing

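Under the alternatives run, Tgfbi stayed called against Sham in all 4 comparisons, except in RCI under a per-gene unequal-variance test without adjustment. Smad3 was lost in WBIR+MSC-EVs and RCI under TMM, median-of-ratios and total-count scaling. The number of TGF-beta genes called against Sham in WBIR+MSC-EVs was 2 in place of 4 under TMM, median-of-ratios and total-count scaling, under the unequal-variance test and with only the groups compared, and 2 to 4 with a sample left out. In RCI it was 2 in place of 4 under TMM and median-of-ratios scaling and the unequal-variance test, and in RCI+MSC-EVs 5 in place of 3 under the unequal-variance test. For RCI against WBIR averaged over MSC-EV treatment it was 1 in place of 0 without the filter (Tgfb2), with DESeq2 and with only the groups compared (Fn1 in both, adjusted p = 0.0447 and 0.0494). The cause was not tested. Over all 426 genes tested, WBIR+MSC-EVs had 97 higher and 192 lower calls against Sham in the main fit. It had 132 and 147 under TMM, 136 and 145 under median-of-ratios and 123 and 150 under total-count scaling. RCI had 113 and 183 in the main fit, 151 and 149 under TMM and 152 and 148 under median-of-ratios scaling. Leaving out Sham replicate 3 turned the log2FC of Fn1 in WBIR to 0.66 (range with a sample left out -2.35 to 0.66), and scaling to only the 7 steadiest reference genes turned that of Smad3 in RCI against WBIR to -0.05. Of 60 member values, 36 were smaller than their SE, and 26 of these changed sign under an alternative, where 0 were called.

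Over all genes, the unequal-variance test passed 17 and 15 for MSC-EVs in WBIR and RCI, and DESeq2 called 1 for MSC-EVs averaged over both. For RCI against WBIR, 3 genes became 1 under TMM, median-of-ratios and total-count scaling, 28 with DESeq2, 0 with only the groups compared, and 1 to 15 with a sample left out. The unequal-variance test passed 45 at an unadjusted p under 0.05, where edgeR had 71. Averaged over treatment, 13 became 28 under TMM, 26 under median-of-ratios, 4 under 7-gene and under total-count scaling, 8 with counts under 20 raised to 20, 68 with DESeq2, 76 with only the groups compared, 23 without RCI replicate 3 and WBIR+MSC-EVs replicate 1 together (chosen after seeing the data), and 2 to 79 with a sample left out. With TMM the split of higher and lower calls against Sham was 135 and 150 in WBIR, 132 and 147 in WBIR+MSC-EVs, 151 and 149 in RCI, and 137 and 149 in RCI+MSC-EVs, in place of 92 and 200, 97 and 192, 113 and 183, and 102 and 176. A replicate block over all 15 samples changed no call of a member, and the member counts were again 3, 4, 4 and 3 against Sham. With a replicate block within each injury, where the numbers were assumed to pair treated with untreated samples, 0 members and 0 genes were called in each of the 4 MSC-EV comparisons, with Tgfbi in RCI at 0.48 ± 0.30 (edgeR adjusted p = 0.908) and in WBIR at 0.06 ± 0.29 (adjusted p = 0.999). Tgfb2 and Tgfb3 had few counts and Fn1 spread widely between samples, and what limited the results of each gene was not tested.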
